A study of Mus musculus with 6 samples.

Results

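Chp2, Ctxn3, Elovl7, Adamts18, Hrc and AW112010 are 6 of the 24568 gene symbols counted by droplet RNA sequencing of transcript 3′ ends in single cells of fetal mouse small intestine. They were chosen by their measured level, which was high in the PDGFRA-high mesenchyme of these same cells, so their levels there are given as a description and no test is attached to them. The tissue came from C57/BL6 embryos carrying Pdgfra-H2BGFP, an allele that marks the nuclei of Pdgfra-transcribing cells with green fluorescent protein and that every group shares. The labels list 6 samples in 4 groups. Embryos of E15.5 and E16.5 gave 2 samples of all live cells, titled as 2 lanes, and 1 sample of enriched cells. Embryos of E13.5, E14.5 and E18.5 gave the same. Enrichment took cells positive for CD31 (endothelium), CD45 (blood lineage) or Epcam (epithelium), or with high GFP, and all sorts excluded cells positive for DAPI or for Ter119, a red cell antigen. Replicates were pooled before capture (4 at E13.5, 3 at E14.5 and 2 at each later age).

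The counts come as 1 matrix of 13127 cells. Their barcodes end in 6 suffixes that no label ties to a sample, an age or an embryo. The suffixes therefore define technical sets only, named here A1, A2 and A3 for -1_1, -2_1 and -3_1 and B1, B2 and B3 for -1_2, -2_2 and -3_2. After filtering, the sets kept between 1177 cells (A3) and 2508 cells (B2), 12623 in all. Median unique molecular identifiers (UMIs) per cell ran from 3548 in B3 to 13586 in A2, and 22 barcode sequences occurred in more than 1 set. The matrix has no replicates, so intervals are 95% intervals for counting error and carry no information on variation between embryos. Of the symbols, 21351 had counts in the sets ending in A, 18222 in those ending in B and 17403 in both. Kept UMIs per set ran from 9283825 (A3) to 30932046 (A1) in A and from 8160749 (B3) to 11157979 (B2) in B. Levels set across the endings may rest on different gene models, and the part of depth in these symbol counts was not tested. In A3 and B3, all 11 markers of PDGFRA-high mesenchyme reached 20 CPM (UMIs of a gene per 1000000 UMIs) and their levels summed to 4814 and 4256 CPM, against 871 to 1466 CPM in the other sets. The 7 markers of other fibroblasts summed to 151 and 104 CPM in A3 and B3 and to between 1076 and 1140 CPM elsewhere. A3 and B3 are thus the sets in which the members are described in depth.

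PDGFRA-high mesenchyme is the layer of cells that lies directly under the intestinal epithelium and gathers into the clusters that accompany villus formation. These cells receive Hedgehog signals from the epithelium, carry the PDGFRA receptor, and signal back through BMP ligands. The 6 members do not belong to 1 known pathway. Chp2 encodes an EF-hand calcium-binding cofactor of plasma membrane sodium-proton exchangers and is related to calcineurin B. Hrc encodes the histidine-rich calcium-binding protein of the sarcoplasmic reticulum lumen, best known from heart and skeletal muscle. Elovl7 encodes an endoplasmic reticulum enzyme that elongates long-chain fatty acids. Adamts18 encodes a secreted metalloproteinase that acts on extracellular matrix, Ctxn3 encodes a small membrane protein of the cortexin family known from brain and kidney, and AW112010 is an interferon-inducible transcript of immune cells.

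In the mouse genome GRCm38 (mm10, GENCODE M21), the members lie on 5 chromosomes. Chp2 spans chr7:122219496-122222824 on the plus strand, with 7 exons in its longest transcript, and Hrc spans chr7:45335290-45338974 on the plus strand, with 6 exons. Elovl7 spans chr13:108214404-108285683 on the plus strand and overlaps 2 antisense genes, Gm32376 and Gm30747. Adamts18 spans chr8:113697126-113848738 on the minus strand, with 23 exons in its longest transcript. AW112010 spans chr19:11047612-11055808 on the minus strand and is annotated as a long intergenic noncoding RNA. Ctxn3 overlaps 1 antisense gene, 4930511M06Rik. Whether the counting used strand is not given in the sources used here, so reads of Elovl7 and Ctxn3 may include reads of their antisense partners.

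RefSeq promoter windows (GRCm38.p6, 250 bases before to 50 bases after the RefSeq start) were matched for 5 of the 6 members. They did not share a base composition. The Elovl7 window held 30 CpG dinucleotides at 74.0% G+C and the Adamts18 window 22 at 66.0%, against a median of 7 (quartiles 3 to 20) and 52.7% G+C over 32851 promoters. The windows of Chp2 and Hrc held 8 and 3 CpGs, each at 58.7% G+C, and that of AW112010 held 1 at 40.0%. The ends of this range are printed here. For Elovl7 the 250 bases before the start (chr13:108214154-108214403, plus strand) are shown with their 25 CpGs in capitals, and for AW112010 the whole window (chr19:11050517-11050816, minus strand) is shown with its 1 motif match in capitals.
Elovl7: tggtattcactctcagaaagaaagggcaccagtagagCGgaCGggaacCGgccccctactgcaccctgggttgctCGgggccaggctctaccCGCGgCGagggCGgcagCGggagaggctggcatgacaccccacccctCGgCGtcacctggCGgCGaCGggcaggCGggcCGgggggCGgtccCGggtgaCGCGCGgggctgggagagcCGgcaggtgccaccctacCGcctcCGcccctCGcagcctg
AW112010: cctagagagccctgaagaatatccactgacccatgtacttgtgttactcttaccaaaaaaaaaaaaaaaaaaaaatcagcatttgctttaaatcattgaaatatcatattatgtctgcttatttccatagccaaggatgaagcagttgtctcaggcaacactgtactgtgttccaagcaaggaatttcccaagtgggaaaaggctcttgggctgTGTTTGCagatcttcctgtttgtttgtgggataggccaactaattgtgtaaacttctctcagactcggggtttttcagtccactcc
Both strands were searched for letters that forkhead factors prefer (TGTTTAC and its variant TGTTTGC), for those of GLI factors (GACCACCCA), of GATA factors (AGATAA) and of SMAD factors (GGCGCC), and for the TATA box (TATAAA). None of these letter strings contains another. The match in AW112010 was TGTTTGC on the strand of the gene, from base -36 to base -30 relative to the start. The other 4 windows held none of these letters. Over all promoters, 8.48% held a forkhead match, 0.253% a GLI match, 11.2% a GATA match, 11.9% a SMAD match and 13.6% a TATA box match. A match is a description of letters and not of a bound site, and the RefSeq start of AW112010 lies inside its GENCODE span.

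Chp2, the exchanger cofactor, stood at 2.39 CPM in A1, 2.26 in A2 and 136 (129 to 144) in A3, and at 6.17 in B1, 5.65 in B2 and 29.5 (25.9 to 33.5) in B3. Its highest level was in A3, B3 came next, and the intervals of A1 and A2, and of B1 and B2, overlapped. Hrc, the calcium store protein, stood at 2.65, 3.41 and 62.9 CPM in A1, A2 and A3 and at 17.7, 19.1 and 96.4 CPM in B1, B2 and B3. Hrc was thus higher in B3 than in A3, the reverse of Chp2, with intervals of 57.9 to 68.2 in A3 and 89.8 to 103 in B3. Elovl7, the elongase, stood at 1.07, 1.22 and 69.6 CPM in A1 to A3 and at 14.2, 14.4 and 93.1 CPM in B1 to B3, and like Hrc was highest in B3.

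Adamts18, the secreted protease, stood at 2.39, 2.02 and 109 CPM in A1 to A3 and at 10.5, 11.6 and 82.0 CPM in B1 to B3. Ctxn3, the cortexin, stood at 0.647, 1.11 and 58.6 CPM in A1 to A3 and at 7.37, 7.89 and 51.1 CPM in B1 to B3. Adamts18 was higher in A3 than in B3 beyond counting error (102 to 116 against 75.9 to 88.4), whereas the intervals of Ctxn3 overlapped (53.8 to 63.7 against 46.3 to 56.2). AW112010, annotated as a noncoding transcript, stood at 5.01, 5.53 and 232 CPM in A1 to A3 and at 15.9, 15.6 and 102 CPM in B1 to B3. Sets A1 and A2 had the lowest levels of every member, B1 and B2 came next, and A3 and B3 were highest, with no overlap of intervals between these steps. Pdgfra itself stood at 172, 129 and 939 CPM in A1 to A3 and at 105, 113 and 406 CPM in B1 to B3. The order of A1 and A2 against B1 and B2 was thus not that of Pdgfra, which was higher in A1 and A2 than in B1 and B2.

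**Figure D1:**
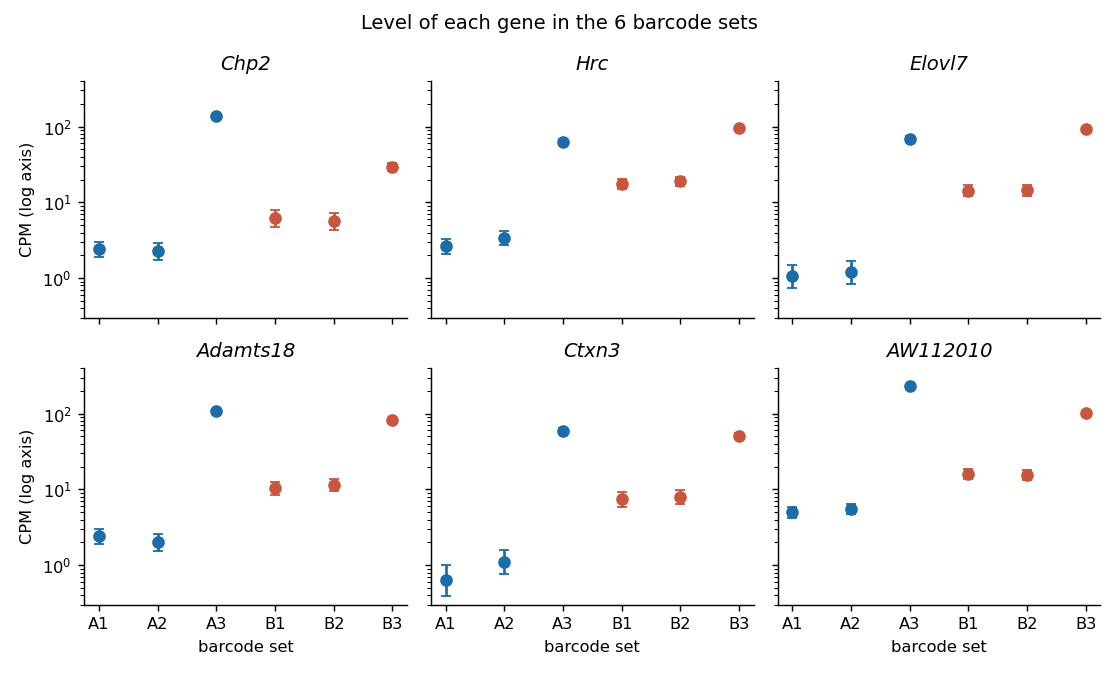
Level of each member in CPM (log axis) in the 6 barcode sets, with sets ending in A in blue and in B in red. Points are summed UMIs over all kept cells of a set and bars are exact Poisson 95% intervals. Each gene is highest in A3 and B3, with Chp2 at 136 and 29.5 CPM and Hrc at 62.9 and 96.4 CPM.

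On the log2 scale of CPM, the ratio of A3 to the sum of A1 and A2 ran from 4.38 (4.14 to 4.63) for Hrc to 6.07 (5.66 to 6.51) for Ctxn3. The ratio of B3 to the sum of B1 and B2 ran from 2.32 (2.01 to 2.65) for Chp2 to 2.89 (2.68 to 3.11) for Adamts18. All 6 members were 2-fold or more higher in both endings, where 12.4% of 11163 genes were so in A, 9.81% of 10342 in B and 7.24% of 10001 in both. Since this contrast resembles the one that chose the members, the counts are only a description. The median over the members was 5.75 in A and 2.69 in B, and over all genes it was -0.00 and 0.15. Ctxn3 held rank 10 and Hrc rank 60 in A, and Adamts18 held rank 18 and Chp2 rank 86 in B. Pdgfra ranked 336 in A and 232 in B, with log2 ratios of 2.63 and 1.89. The epithelial markers differed in the same direction in A, with the 14 of them summing to 548 and 525 CPM in A1 and A2 and to 2725 CPM in A3, and to 79.5, 76.9 and 179 CPM in B1 to B3. None of the 14 was at 0 in any set. Red cell transcripts (6 genes) summed to 44.6, 56.7 and 42.5 CPM in A1 to A3 and to 1864, 1800 and 3801 CPM in B1 to B3. The part of either in these ratios was not tested.

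To compare cells of unequal depth, each cell was thinned to 2000 UMIs, which kept 1174 cells of A3 and 2169 of B3. AW112010 was found in 35.3% of A3 cells (32.5 to 38.1) and 16.4% of B3 cells, and in 57.6% and 23.8% before thinning. Chp2 was found in 24.2% of A3 cells (21.8 to 26.7) and 5.90% of B3 cells (4.95 to 6.98), and in 44.6% and 9.67% before thinning. These are the members whose A3 share was furthest above that of B3.

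Adamts18 was found in 19.8% of A3 cells and 15.3% of B3 cells after thinning, and in 42.1% and 23.4% before. Hrc was found in 12.6% and 17.2% after thinning and in 32.4% and 26.5% before, so that thinning turned the order of the sets. Elovl7 was found in 12.5% and 16.0% after thinning and in 29.3% and 24.8% before, with the same turn. For Ctxn3 the shares were 10.7% and 9.54% after thinning and 26.2% and 15.1% before, and the thinned intervals overlapped. In A1, A2, B1 and B2, the thinned shares of the members ran from 0.0813% (Ctxn3 in A1) to 4.32% (Hrc in B2). UMIs were spread over many cells in A3 and B3, with at most 19 UMIs of AW112010 and 12 of Chp2 in any A3 cell, and at most 7 UMIs of any member in a B3 cell. Before thinning, 156 of 1177 A3 cells held 5 or more UMIs of AW112010, and 59 held as many of Chp2.

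Free RNA can place UMIs in cells that do not express a gene, so the same shares were taken in cells with 3 or more UMIs of the other-fibroblast markers among their 2000. There were 33 such cells in A3 and 38 in B3, with medians of 8124 and 4843 UMIs before thinning against 7021 and 3546 in the other cells. Adamts18 was in 0 of 33 of them in A3, and that count of 0 leaves room for shares up to 9.09%, against 20.3% of the other cells. Elovl7 was in 1 of 33 in A3 (3.03%, interval 0.0767 to 15.8) against 12.8%, and in 1 of 38 in B3 (2.63%, 0.0666 to 13.8) against 16.3%. Chp2 was in 12.1% (3.40 to 28.2) against 24.5% in A3 and in 0 of 38 against 6.01% in B3, where the 0 leaves room for up to 7.89%. AW112010 was in 18.2% (6.98 to 35.5) against 35.8% in A3 and in 5.26% (0.644 to 17.7) against 16.6% in B3. All 12 shares were lower in these cells than in the rest of their set. The members were chosen for their level in PDGFRA-high mesenchyme, so lower shares in other-fibroblast cells, here and below, repeat that choice in part. The share of all genes that were lower in these cells was not computed. As a ratio of shares, Hrc in B3 came nearest, at 10.5% (2.94 to 24.8) against 17.3% (15.7 to 18.9). The reference cells of A3 and B3 themselves held Pdgfra, at 515 CPM against 1048 in the other cells of A3 and 118 against 424 in B3, so their shares are not purely a background level. In B1 and B2, with 684 and 778 such cells and Pdgfra at 49.0 and 52.1 CPM in them, the reference cells gave shares of 0 to 0.386% for the members against 1.86% to 6.10% in the other cells of those sets. In A1 and A2, with 790 and 637 such cells, the shares were 0 to 0.628% against 0.120% to 1.66%, and the intervals of both kinds of cell overlapped for each member, as for Adamts18 in A1 at 0.506% (0.138 to 1.29) against 0.659% (0.329 to 1.18). Each member share of A1 and A2 was lower in the reference cells. Overlap of separate intervals does not compare the shares, and their difference was not tested.

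Pairs of members were found in the same cells more often than the product of their single shares in all 15 pairs, in A3 and in B3. The median ratio of observed to expected cells was 1.31 in A3 (lowest 1.15, highest 1.65) and 1.33 in B3 (lowest 1.03, highest 1.66). Of all genes found in at least 5% of cells, 46.9% to 50.5% had a ratio above 1 to a given member. Chp2 and AW112010 were together in 145 A3 cells where 100.2 were expected, with an odds ratio of 2.41 (1.81 to 3.19). In B3 the same pair was together in 28 cells where 21.01 were expected, with an odds ratio of 1.46 (0.91 to 2.29). Adamts18 and AW112010 were together in 90 B3 cells where 54.3 were expected, with an odds ratio of 2.21 (1.66 to 2.92), and in 106 A3 cells where 81.8 were expected, with an odds ratio of 1.73 (1.28 to 2.34).

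The share of all genes whose odds ratio with a member had an interval above 1 was not computed, so the next counts lack a background. The interval of the odds ratio lay above 1 for 10 of 15 pairs in A3, for 6 in B3 and for 5 in both. Those 5 were Chp2 with Elovl7, Hrc with AW112010, Elovl7 with Adamts18, Adamts18 with AW112010 and Ctxn3 with AW112010, named after their values were seen. At 1000 UMIs, the log2 of observed over expected was -0.0663 (-1.69 to 1.16) for Chp2 with Elovl7 in B3 and -0.20 (-1.51 to 0.85) for Elovl7 with Adamts18 in A3. Elovl7 and AW112010 differed between the sets, with 65 cells against 51.8 expected in A3 and 59 against 57.1 in B3, though the difference itself was not tested. Hrc and Adamts18 had intervals that included 1 in both sets (0.88 to 2.07 in A3 and 0.78 to 1.48 in B3). A ratio of 1.5 or more was reached by 2 pairs in A3 and 6 in B3. Over all genes found in at least 5% of cells (5841 in A3 and 5054 in B3), the share with such a ratio in A3 was 1.78% to Chp2, 2.86% to Hrc, 3.0% to Elovl7, 1.35% to Adamts18, 3.49% to Ctxn3 and 0.959% to AW112010. In B3 these shares were 3.92%, 0.336%, 0.396%, 0.376%, 1.17% and 1.03% in the same order. Each member's median ratio over all these genes lay between 0.986 and 1.001, whereas its median over the other 5 members lay between 1.15 and 1.56. The members were all chosen for their level in PDGFRA-high mesenchyme of these cells. Co-detection among them, here and below, repeats that choice in part, and nothing is read from it against all genes.

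**Figure D2:**
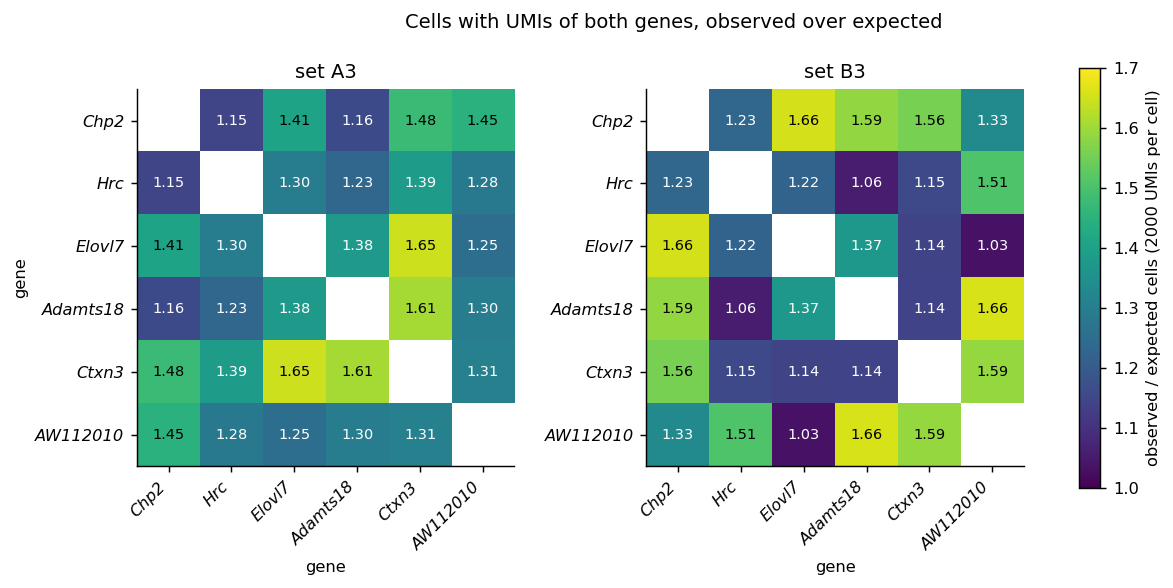
Cells with UMIs of both genes over the number expected from the product of their shares, for each pair in A3 (left) and B3 (right), at 2000 UMIs per cell. Colour gives the ratio printed in each square, from 1.15 to 1.65 in A3 and from 1.03 to 1.66 in B3, and the empty diagonal is a gene with itself.

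Summed over the 15 pairs, the ratio was 1.33 (1.25 to 1.43) in A3 and 1.32 (1.23 to 1.42) in B3. In cells without a UMI of 21 cycling genes it was 1.10 (0.991 to 1.22) in A3 and 1.17 (1.07 to 1.29) in B3. In cells with a Pdgfra UMI and fewer than 3 UMIs of other-fibroblast markers it was 1.26 (1.17 to 1.35) and 1.30 (1.19 to 1.42). The ratio was lowest among cells with no cycling transcript, with intervals that overlapped those of the cells with a Pdgfra UMI in both sets. Differences between the subsets of cells described here were not tested. Among cells at or below the median of epithelial UMIs of their set, chosen after seeing the data, the ratio was 1.49 (1.36 to 1.63) in A3 and 1.31 (1.20 to 1.42) in B3. Without the 5% of cells with most UMIs it was 1.28 and 1.30.

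At 2000 UMIs, 417 of 1174 A3 cells (35.5%) showed no member where 315 were expected from the product of the shares. A single member was found in 351 A3 cells where 479 were expected, and 3 or more in 147 where 97.5 were expected. In B3, no member was found in 1007 of 2169 cells where 910 were expected, 1 member in 729 where 858 were expected, and 3 or more in 122 where 72.9 were expected. Cells at both ends of the distribution were thus more frequent than independence gives, and cells with 1 member less frequent. Since the members were chosen for their level in the same kind of cell, this is only a description. The ratio for 3 or more members was 1.51 (1.27 to 1.77) in A3 and 1.67 (1.39 to 2.00) in B3. Without thinning it was 1.07 (0.980 to 1.16) and 1.29 (1.15 to 1.45). In cells without a cycling UMI it was 1.19 (0.920 to 1.52) and 1.38 (1.08 to 1.74). Cells with 5 members numbered 7 in A3 and 3 in B3, and no thinned cell of either set held all 6. Before thinning, 25 of 1177 A3 cells held all 6 members.

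**Figure D3:**
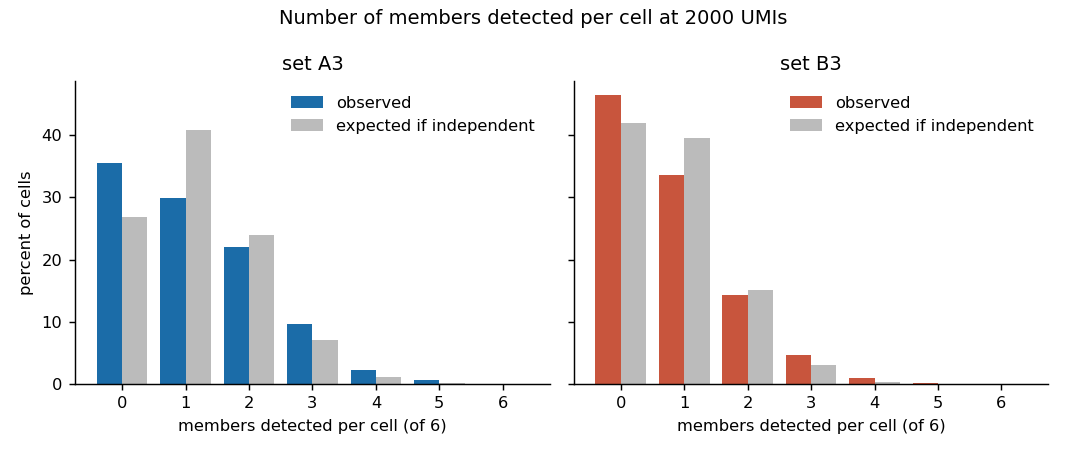
Percent of cells with 0 to 6 members detected at 2000 UMIs in A3 (left, 1174 cells) and B3 (right, 2169 cells). Coloured bars are observed and grey bars are expected from the product of the 6 single shares, and the observed bars exceed the expected ones at 0 members (35.5% against 26.9% in A3) and at 3 or more.

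Cells with 2 or more members were also counted in the sets with few member transcripts. In A1, 19 of 2459 cells held 2 or more members where 1.06 were expected, and in A2, 15 of 2084 where 0.855 were expected. In B1, 70 of 2198 cells did so where 18.8 were expected, and in B2, 88 of 2498 where 26.2 were expected. Observed over expected was 17.9 (10.7 to 27.9), 17.5 (9.82 to 28.9), 3.73 (2.91 to 4.71) and 3.36 (2.70 to 4.15) in A1, A2, B1 and B2. Without thinning it was 3.35 (2.37 to 4.59), 2.76 (1.91 to 3.86), 2.54 (2.12 to 3.02) and 2.55 (2.15 to 3.00). In A3 the ratio was 1.07 (0.968 to 1.18) and without thinning 0.869 (0.809 to 0.933), and in B3 it was 1.08 (0.978 to 1.18) and 0.999 (0.930 to 1.07). The expected share of cells was 0.0433% in A1 and 32.3% in A3, which bounds how large a ratio can be, so the ratios are not compared between sets. Cells with exactly 1 member were more frequent than cells with 2 or more, at 39, 33, 173 and 218 thinned cells in A1, A2, B1 and B2.

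The level of Pdgfra was taken in the same cells. The members were chosen for their level in PDGFRA-high mesenchyme of these cells, so this comparison is a description and nothing is read from it. In cells with 2 or more members, Pdgfra stood at 1263 CPM (931 to 1675) in A1, 1133 (785 to 1584) in A2, 443 (340 to 568) in B1 and 506 (406 to 622) in B2. In cells with no member it stood at 151, 120, 89.5 and 91.7 CPM. The level in the A1 and A2 cells with 2 or more members was close to that of A3 cells with 2 or more members, 1355 CPM (1276 to 1437). Bmp2, a ligand made by PDGFRA-high cells, stood at 316 CPM (163 to 552) in A1 cells with 2 or more members and 17.7 in those with none, and at 533 (305 to 866) and 15.7 in A2. Median depth before thinning was lower in the A1 cells with 2 or more members (7453 UMIs) than in those with none (12307), and likewise in A2 (7879 against 13712). The 7 other-fibroblast markers summed to 105 CPM in the A1 cells with 2 or more members and to 1319 CPM in those with none.

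**Figure D4:**
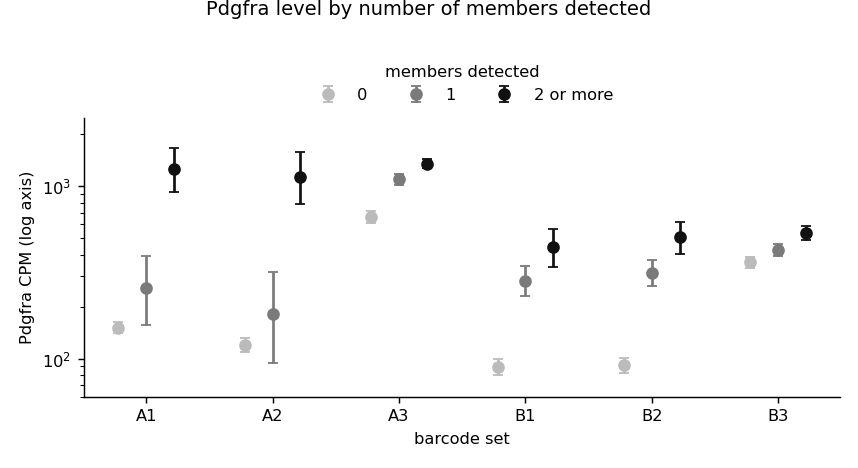
Pdgfra level in CPM (log axis) in cells with 0, 1 and 2 or more members detected at 2000 UMIs, in each of the 6 sets. Bars are exact Poisson 95% intervals. Pdgfra is highest in cells with 2 or more members in each set, from 443 CPM in B1 to 1355 CPM in A3.

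The members were then compared between cells with and without a Pdgfra UMI within A3 and B3. Since the choice of members used their level in PDGFRA-high mesenchyme, these ratios and counts repeat that choice in part, and nothing is read from the counts against their backgrounds. Pdgfra had a UMI among 2000 in 77.6% of A3 cells and 53.2% of B3 cells. In A3, Adamts18 stood at 153 CPM in cells with a Pdgfra UMI and 53.2 in those without, a log2 ratio of 1.52 (0.96 to 2.14). Elovl7 stood at 90.0 and 38.0 CPM, a log2 ratio of 1.24 (0.57 to 1.99), and AW112010 at 318 and 156 CPM, a log2 ratio of 1.03 (0.69 to 1.38). These were the members of A3 with the largest ratios. The log2 ratio was 0.84 (0.20 to 1.55) for Hrc, 0.73 (0.34 to 1.15) for Chp2 and 0.42 (-0.17 to 1.05) for Ctxn3. All 6 were positive and 5 had intervals above 0, for which no share of all genes was computed. Of the 6, 5 were 1.5-fold or more higher, against 15.7% of 11342 genes and 10.4% of the 7368 with at least 20 CPM. The median over the members was 0.94 and over all genes -0.02.

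In B3 the order of the members was different. Ctxn3 stood at 69.8 CPM in cells with a Pdgfra UMI and 42.3 in those without, a log2 ratio of 0.72 (0.34 to 1.12), and Chp2 at 38.2 and 23.6 CPM, a log2 ratio of 0.69 (0.17 to 1.23). The log2 ratio was 0.40 (0.13 to 0.67) for AW112010 and 0.36 (0.08 to 0.64) for Hrc. The intervals of Elovl7 (0.21, -0.07 to 0.50) and Adamts18 (0.19, -0.11 to 0.49) included 0. All 6 were positive and 2 were 1.5-fold or more higher, against 6.15% of 10186 genes and 1.71% of the 6243 with at least 20 CPM, and the median over the members was 0.38. Adamts18 was thus the member with the largest ratio in A3 and the smallest in B3, with intervals that did not overlap. Pdgfra itself stood at 939 CPM in A3 and 406 CPM in B3, so lacking a Pdgfra UMI does not mean the same in both sets. The part of this in the differences between the sets was not tested.

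Shares by Pdgfra count followed the same direction. In A3, Adamts18 was in 9.51% of 263 cells with 0 Pdgfra UMIs, 13.1% of 283 cells with 1, 21.8% of 234 with 2 and 30.2% (25.7 to 35.0) of 394 with 3 or more. AW112010 was in 21.7%, 29.0%, 40.2% and 45.9% of the same cells, and Chp2 in 17.1%, 18.7%, 23.9% and 33.0%. Ctxn3 spanned less, from 8.37% and 7.42% to 12.4% and 13.7%. In B3, AW112010 was in 14.5% of 1016 cells with 0 Pdgfra UMIs, 15.0% of 699 with 1, 20.0% of 305 with 2 and 28.9% (21.7 to 36.8) of 149 with 3 or more. Elovl7 ran from 15.1% to 19.5% over the same counts, with overlapping intervals.

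Other measures moved with the number of members. In A3, cells with 2 or more members had a median of 6373 UMIs before thinning and 3.55% mitochondrial UMIs, against 9338 and 2.93% in cells with none, and in B3 3366 UMIs and 3.15% against 3727 and 2.87%. The nuclear noncoding RNA Malat1 stood at 62108 CPM in A3 cells with 2 or more members and 39227 in those with none, and at 74647 and 55265 CPM in B3. The 7 other-fibroblast markers summed to 46.8 CPM against 231 CPM in A3 and to 47.3 against 130 in B3, and the 14 epithelial markers to 3142 against 2548 in A3 and to 203 against 181 in B3. Cells above the median of epithelial UMIs of their set were set against those at or below it. The log2 ratio in A3 was 0.83 (0.39 to 1.26) for Elovl7, 0.48 (0.25 to 0.70) for AW112010 and 0.42 (0.13 to 0.70) for Chp2, and the other intervals included 0. In B3 it was -0.50 (-0.83 to -0.17) for Elovl7 and 0.46 (0.17 to 0.74) for Hrc. Elovl7 thus had opposite signs in the 2 sets. The epithelial markers summed to 2725 CPM in A3 and 179 CPM in B3, so the cut fell at unlike levels in them. The sum of the members was 0.97 (0.78 to 1.17) higher with a Pdgfra UMI in A3 on the log2 scale and 1.15 (0.88 to 1.42) higher among cells at or below the median of epithelial UMIs. In B3 these values were 0.37 (0.24 to 0.50) and 0.38 (0.23 to 0.53). The part of depth, Malat1 and mitochondrial UMIs was not tested.

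Foxl1, a forkhead factor of subepithelial mesenchyme, stood at 24.1, 20.6 and 73.0 CPM in A1 to A3 and at 26.2, 26.3 and 73.0 CPM in B1 to B3. A Foxl1 UMI was found in 14.2% of thinned cells in A3 and in B3. No member differed between cells with and without it beyond counting error in either set. Thinned Foxl1 counts had a variance over mean of 1.00 in A3 and 1.03 in B3, near the value of counting error alone. The split may thus sort cells largely by counting error, and it cannot show that the members are unrelated to Foxl1. In A3 the log2 ratios ran from 0.06 (-0.63 to 0.69) for Ctxn3 to 0.34 (-0.25 to 0.90) for Elovl7. In B3 they ran from -0.26 (-0.86 to 0.30) for Ctxn3 to 0.38 (-0.02 to 0.76) for Adamts18. None was 1.5-fold or more higher, against 14.9% of 11411 genes in A3 and 8.68% of 10172 in B3, or 9.26% and 3.86% of genes with at least 20 CPM. These intervals leave room for differences in either direction, and for the sum of the members the ratio was 0.23 (0.05 to 0.40) in A3 and 0.15 (-0.02 to 0.33) in B3. In A3 cells without a cycling UMI the sum was at -0.09 (-0.38 to 0.18).

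Cells with a UMI of any of 21 cycling genes made up 61.8% of A3 and 47.7% of B3 after thinning, and most members were lower in them. Adamts18 stood at 105 CPM in cycling A3 cells and 173 in the others, a log2 ratio of -0.72 (-1.05 to -0.39), and at 72.1 and 106 CPM in B3, a ratio of -0.56 (-0.86 to -0.26). AW112010 stood at 246 and 339 CPM in A3, a ratio of -0.46 (-0.68 to -0.23), and at 99.1 and 120 CPM in B3, a ratio of -0.27 (-0.54 to -0.01). Adamts18 and AW112010 were the members with intervals below 0 in both sets.

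Chp2 had a log2 ratio of -0.46 (-0.75 to -0.18) in A3 and -0.12 (-0.63 to 0.39) in B3. Hrc had -0.41 (-0.87 to 0.05) and -0.53 (-0.82 to -0.25), and Elovl7 had -0.12 (-0.56 to 0.33) and -0.40 (-0.69 to -0.12). Ctxn3 stood apart, at 0.13 (-0.35 to 0.61) in A3 and -0.87 (-1.27 to -0.48) in B3. The Ctxn3 intervals of the sets did not overlap. In all, 5 members were lower in A3 and 6 in B3, with 3 and 5 intervals below 0. The shares of all genes that were lower, or had such intervals, were not computed, so these counts lack a background. The median log2 ratio was -0.44 in A3 and -0.47 in B3 over the members, and 0.004 and 0.009 over genes with at least 20 CPM. At 1000 UMIs, Elovl7 in B3 was at 0.0197 (-0.45 to 0.47). Of the 6 members, 1 in each set was 1.5-fold or more lower, against 10.3% of 11201 genes in A3 and 5.21% of 10206 in B3, or 5.13% and 1.07% of genes with at least 20 CPM. With 6 members, 1 gene past this fold is not distinguished from these shares. Pdgfra itself had a ratio of -0.39 (-0.51 to -0.28) in A3 and -0.16 (-0.29 to -0.02) in B3.

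**Figure D5:**
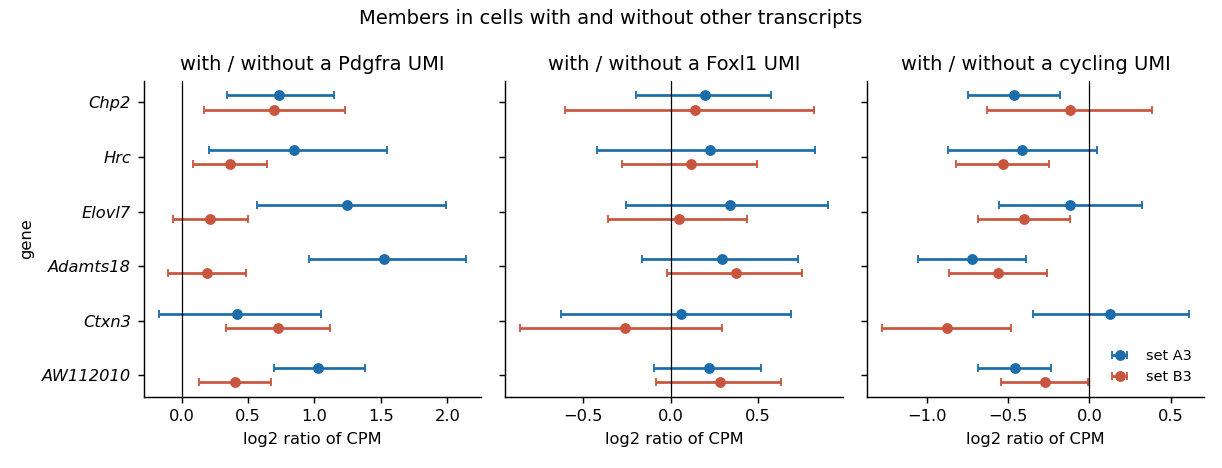
Log2 ratio of CPM between cells with and without a UMI of Pdgfra, Foxl1 or the cycling genes, for each member in A3 (blue) and B3 (red). Bars are exact 95% intervals for counting error. The Pdgfra ratios are all positive, no Foxl1 interval excludes 0, and the cycling ratios are negative except for Ctxn3 in A3 (0.13).

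The share of cycling cells by number of members takes the same cells and counts the other way round and is not a second observation. In A3 it was 74.8% of cells with no member, 53.6% with 1 and 55.4% with 2 or more, and in B3 55.2%, 41.8% and 40.0%. In A1 it was 87.0% (85.6 to 88.4) with no member and 42.1% (20.3 to 66.5) of 19 cells with 2 or more, and in B1 74.8% and 44.3% (32.4 to 56.7) of 70. The intervals of A2 overlapped (85.2 to 88.2 against 38.4 to 88.2, the latter over 15 cells). In B2 the share was 73.1% with no member, 51.4% with 1 and 60.2% (49.2 to 70.5) with 2 or more.

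The genes most like each member were named by Pearson's r of log2(thinned count + 1) across cells, taking the lower of the values in A3 and B3 among 4762 genes found in at least 5% of cells of both. Cells of a set share a library, free RNA and a depth range, so r is a description. AW112010 was most like Rgs10, a regulator of G protein signalling (r 0.229 in A3 and 0.226 in B3), Npnt, the basement membrane ligand nephronectin (0.393 and 0.209), and Malat1 (0.240 and 0.199). Chp2 was most like Anks1 (0.143 and 0.117), the collagen chain gene Col4a1 (0.174 and 0.0886) and Npnt (0.255 and 0.0868). Adamts18 was most like Malat1 (0.210 and 0.163), the sodium-potassium-chloride cotransporter gene Slc12a2 (0.183 and 0.138) and Bmp4 (0.121 and 0.108). All of these values were low.

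Elovl7 was most like Malat1 (0.163 and 0.129), Slc12a2 (0.110 and 0.118) and Col4a1 (0.111 and 0.109). Hrc was most like Malat1 (0.131 and 0.155), the cyclin-dependent kinase inhibitor gene Cdkn1c (0.127 and 0.118) and Rgs10 (0.101 and 0.104). Ctxn3 was most like the TGF-beta receptor gene Tgfbr2 (0.0918 and 0.0947), the glutathione transferase gene Mgst1 (0.112 and 0.0873) and Pdgfra (0.0743 and 0.0799). Malat1 was among the 3 for 4 members and no member was among the 3 for another. The nearest was AW112010 for Adamts18 (0.101 and 0.144), with 4 genes above it, and the next was AW112010 for Ctxn3 (0.0656 and 0.0948), with 7 genes above it.

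Relatives of the members were described by the same ratios between sets, where 7.24% of all genes were 2-fold or more higher in both endings and 3.97% lower. Among exchangers and cofactors related to Chp2, 2 had at least 5 CPM in both endings and neither was 2-fold higher or lower in both. Chp1, the widely expressed homologue, stood at 39.9 CPM in A3 and 22.6 in A1 with A2, and at 34.2 and 17.2 CPM in B, log2 ratios of 0.82 (0.65 to 0.99) and 0.99 (0.76 to 1.22). Of the cortexins, Ctxn1 was lower in A3 than in A1 with A2 (log2 ratio -1.13, -1.31 to -0.96) and level in B (-0.06, -0.21 to 0.09). None of 9 measured elongases and elongation partners was 2-fold higher or lower in both, from Elovl1 (0.40 and 0.54) to Elovl6 (-0.32 and -0.00).

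Of 10 measured relatives of Adamts18, 3 were 2-fold or more higher in both endings and 1 lower, beside 7.24% and 3.97% of all genes. Adamts6 had log2 ratios of 3.59 (3.38 to 3.82) and 2.36 (2.03 to 2.69), and Adamts9 and Adamts3 were the others that were higher. Adamts19 had ratios of -2.73 (-3.18 to -2.32) and -4.36 (-5.99 to -3.12). The metalloproteinase family was thus divided between both directions. Of 10 measured genes of the reticulum calcium store, to which Hrc belongs, 5 were higher (Casq2, Jph1, Atp2a3, Itpr3 and Stim1) and 1 lower (Asph). Jph1, a junctophilin that ties the reticulum to the plasma membrane, had ratios of 1.18 (0.95 to 1.41) and 1.14 (0.84 to 1.45), and Asph, a hydroxylase and junctin gene, had -1.44 (-1.54 to -1.33) and -1.31 (-1.47 to -1.15). Of 15 measured interferon-responsive genes, 5 were higher (Ifi35, Gbp2, Psmb8, H2-K1 and H2-D1) and none lower. The class I histocompatibility gene H2-D1 stood at 51.9 CPM in A3 and 9.46 in A1 with A2, and at 26.2 and 9.01 CPM in B, ratios of 2.46 (2.28 to 2.63) and 1.54 (1.25 to 1.83). Cxcl10, an interferon-induced chemokine, had 0.18 (-0.02 to 0.37) and -0.13 (-0.35 to 0.08).

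Immune cells express AW112010 and class I genes too, and enriched samples could hold CD45-positive cells. The 8 blood markers summed to 14.0 and 16.9 CPM in A1 and A2, 106 in A3, 36.9 and 34.1 in B1 and B2, and 81.4 in B3, and 1 of the 8 was at 0 in each of A1, A2, B1 and B2. Cells with 3 or more UMIs of these markers among 2000 numbered 2 of 1174 in A3 and 3 of 2169 in B3, and AW112010 was in 414 and 356 cells. The part of blood cells in the AW112010 counts was not tested. Within A3 the blood markers summed to 109 CPM in cells with no member and 85.0 CPM in cells with 2 or more. Endothelial markers (7 genes) reached 3 UMIs in 1 and 2 cells, pacemaker cell markers (3 genes) in 9 and 7 cells, and glial, neuronal and mesothelial markers in none. Smooth muscle markers (7 genes) summed to 556 CPM in A3 and 232 CPM in B3, against 1128 to 1606 CPM in the other sets.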

How the data were processed

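Cells were captured with 10x 3' chemistry after MULTI-seq barcoding, per the labels. The submitters' processing notes name Cell Ranger 2.1.1, Seurat and mm10, and the sources used here give no other step. The authors deposited 1 matrix of raw UMI counts per gene symbol and cell, per the file headers, with 100735249 UMIs in 13127 cells. The members and gene lists were chosen with earlier results of these data known. Named genes are the members, Pdgfra, Foxl1, in each list of relatives the genes with at least 20 CPM in 1 set and the highest and lowest mean ratio, and the 3 genes most like each member; others were named after their values were seen.

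Cells with fewer than 1000 genes (108) or over 5% mitochondrial UMIs (367) were left out. Scrublet in scanpy 1.11.5 called 65 cells (0.495%), a rate at which a doublet caller has not worked, so undetected doublets may be present. CPM carry exact Poisson intervals, ratios conditional binomial intervals and shares Clopper-Pearson intervals (scipy 1.17.1), all at 95%. The limit for a count of 0 was 3 counts. Genes under 5 CPM in both sets of a ratio were not ranked. For thinning, 2000 UMIs were drawn from each cell. The ratio and co-detection steps were tested on simulated data. No count model was fitted because the matrix has no replicates, and no cells were clustered. RefSeq proteins and a Ctxn3 promoter were not used here.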

Additional observations from a re-analysis of the deposited data

How the results depend on the processing

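No paired analysis was possible because the matrix pools samples with no map from cells to samples. Leaving out the cell filter or keeping called doublets moved no summed value beyond its counting interval. Over the alternatives run, log2 ratios of single members between sets kept their sign in 30 of 30 cases in A and in B. Those for Pdgfra did in 42 of 42 cases in A3 and 41 of 42 in B3, those for cycling in 32 and 35 of 36, those for Foxl1 in 24 and 23 of 30, and those of pairs in 116 and 112 of 120. The cause of each shift below was not tested.

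With the mean of per-cell CPM, the members summed to 795 in A3 (668 from summed UMIs) and 482 in B3 (454), and the log2 ratios between sets were 5.15 in A (5.49) and 2.36 in B (2.63). Genes 2-fold or more higher numbered 1384 in A and 1015 in B, 4418 and 3072 with no CPM minimum, and 715 and 549 with a minimum of 20 CPM, chosen after seeing the data. The share of cells with any member, 64.5% in A3 and 53.6% in B3, was 44.9% and 33.7% at 1000 UMIs, 82.6% and 69.7% without thinning, and 26.1% and 12.9% with 2 UMIs required.

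The ratio over the 15 pairs was 1.45 at 1000 UMIs in A3, 1.23 without thinning in B3, 1.10 and 1.17 in cells without a cycling UMI, and 1.49 in A3 cells with few epithelial UMIs, chosen after seeing the data. For 3 or more members the ratio was 2.31 and 2.18 at 1000 UMIs, 1.07 and 1.29 without thinning, and 1.19 and 1.38 in cells without a cycling UMI. At 1000 UMIs, the log2 ratio of Chp2 with Elovl7 in B3 was -0.0663 (-1.69 to 1.16).

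For the summed members, the Pdgfra ratio in A3 was 0.60 at 1000 UMIs and 0.63 in cells without a cycling UMI (0.97 otherwise), and the Foxl1 ratio there was -0.0945 in those cells. The cycling ratio, -0.42 in A3 and -0.46 in B3, was -0.80 and -0.27 at 1000 UMIs, -0.85 and -0.31 without thinning, -0.98 and -0.76 for Mki67 and Top2a alone, and -0.74 and -0.66 with 2 UMIs as the split. At 1000 UMIs, Elovl7 in B3 was at 0.0197 (-0.45 to 0.47) for cycling. Under Spearman's rho, 17 of the 18 most-like names recurred. Few thinned cells hold a Foxl1 UMI or both genes of a pair, which widens those intervals.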
